A study of Rattus norvegicus with 9 samples.

Results

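The interleukin-1 (IL-1) family genes described here are 9 genes chosen by name for their place in the pathway: the agonist ligands Il1a, Il1b, Il33 and Il18, the antagonist Il1rn, the signalling receptors Il1r1 and Il1rl1, the co-receptor Il1rap and the decoy receptor Il1r2. All 9 were found among the 19085 genes of the deposited table, and 8 of them were among the 13256 genes with enough counts for a test. Only Il18 was not tested. Messenger RNA was measured by RNA sequencing of 9 libraries of primary osteoblasts, the bone-forming cells, taken at first passage from the skull vault (calvaria) of male Sprague–Dawley rats aged 24 hours. The sample labels name the knee as the tissue, whereas their growth protocol names the calvaria. All groups received osteogenic induction medium with serum, β-glycerophosphate, ascorbic acid and the glucocorticoid dexamethasone for 7 days. The control group (n = 3) received this medium alone, the thrombin group (n = 3) also received 20 U/mL of the clotting protease thrombin, and the PD03 group (n = 3) received 20 U/mL thrombin together with PD0325901 (PD03), which blocks the kinase MEK. The concentration of PD03 is 0.1 μM in the study's methods and 0.1 mM in a protocol of the labels. No group received PD03 without thrombin, so every effect of PD03 given below is an effect in the presence of thrombin. Whether animals were pooled, and which animals gave which library, was not stated, so p-values measure the spread between these libraries.

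IL-1α, encoded by Il1a, and IL-1β, encoded by Il1b, bind the IL-1 receptor encoded by Il1r1, which then recruits the accessory chain encoded by Il1rap and signals through MyD88 to NF-κB and the MAP kinases. The receptor antagonist encoded by Il1rn occupies the same receptor without recruiting the accessory chain, and the decoy receptor encoded by Il1r2 binds ligand but carries no signalling domain. IL-33, a nuclear cytokine released from damaged cells, acts through the receptor ST2, encoded by Il1rl1, with the same accessory chain, and in bone IL-1 is known as a driver of osteoclast formation and of inflammatory gene expression in osteoblasts.

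The promoter-side sequences of both IL-1 agonists and of their antagonist are shown because the balance of these 3 genes is the centre of the results. Each is the 100 bases upstream of the annotated start, on the coding strand, from RefSeq for the assembly GRCr8. That assembly is not the one used for counting. Capitals mark a match to the AP-1 motif TGANTCA.
Il1a, chr3:136990018-136990117, minus strand: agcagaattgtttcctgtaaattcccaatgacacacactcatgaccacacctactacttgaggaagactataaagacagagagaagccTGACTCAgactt
Il1b, chr3:137036582-137036681, minus strand: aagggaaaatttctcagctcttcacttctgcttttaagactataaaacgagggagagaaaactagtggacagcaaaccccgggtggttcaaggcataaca
Il1rn, chr3:27520222-27520321, plus strand: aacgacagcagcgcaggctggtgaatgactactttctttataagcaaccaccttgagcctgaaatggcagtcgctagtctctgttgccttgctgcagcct
Il1a and Il1b are neighbouring genes. RefSeq windows were found for 8 of the 9 members, with Il1r2 as the exception. In the 250 bases upstream, searched on both strands, the AP-1 motif was found in 1 member, Il1a, at 12 to 6 bases before the start, and in 6.34% of all 33469 windows. The cyclic AMP response element TGACGTCA was found in 0 members and in 1.59% of windows, and the NF-κB consensus in 2 members, Il1r1 and Il1rap, and in 6.33% of windows. These matches describe letters in a window and are not evidence of binding.

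Total counts lay between 15447832 and 19841468 per library, and the biological coefficient of variation was 4.28%. As a check of the labelled cell type, 12 of 12 osteoblast markers were in the table and 8 were tested. Runx2, the transcription factor that starts the osteoblast programme, had a mean of 42.8 CPM (counts scaled by library depth with the TMM method) in the control group, 51.1 in the thrombin group and 32.1 in the PD03 group, whereas the late markers Bglap and Ibsp were nearly absent, with 1 to 5 and 0 to 1 counts per library. Most markers of myeloid cells, which make much IL-1 in tissue, were low: the leukocyte marker Ptprc had 0 to 6 counts per library, Aif1 had 0 counts in the control and thrombin groups, and Cd163 had 0 in the control and PD03 groups. Cd14 was higher, with means of 20.4, 29.3 and 15.7 CPM in control, thrombin and PD03. Spi1 (1.08, 0.760 and 1.45 CPM), Csf1r (0.440, 0.746 and 1.23) and Itgb2 (0.876, 0.822 and 0.558) were in the range of Il1b (0.656, 1.96 and 0.813). The osteoblast list summed to 65900 to 72120 CPM in control, 60828 to 64139 in thrombin and 103206 to 106480 in PD03 libraries. Most of this sum was Col1a1, with means of 47414, 42828 and 72088 CPM in control, thrombin and PD03, followed by Col1a2 and Sparc. The sum therefore follows these abundant matrix genes and not the scarcer markers of the list. Sp7 had 59 to 122 counts per library, Alpl 6 to 62, Phex 3 to 18, Dlx5 0 to 9 and Dmp1 0 to 4. In these bulk samples, fewer cells of a type and less RNA per cell cannot be told apart.

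The levels of the family differed widely between genes. Per length, in FPKM (fragments per kilobase of transcript, scaled by library depth), both signalling receptors were the most abundant members in the control group, in which Il1rl1 was at 117 ± 1.85 FPKM (SD, n = 3), Il1r1 at 97.8 ± 2.28 and Il33 at 64.4 ± 1.66. These were followed by Il1a at 16.03 ± 1.12 FPKM, Il1r2 at 8.73 ± 0.381, Il1rn at 6.02 ± 0.830 and Il1rap at 2.43 ± 0.323. Il1b, at 0.362 ± 0.141 FPKM, and Il18, at 0.0701 ± 0.0611, were the lowest, and no neighbours in this order overlapped between libraries. In the thrombin group Il33 stood first at 118 ± 2.75 FPKM. The libraries of Il1r1 (83.5 ± 1.46) and Il1rl1 (81.3 ± 4.41) then overlapped, as did those of Il1r2 (5.50 ± 0.406) and Il1rn (4.84 ± 0.438). In the PD03 group Il1r1 stood first at 59.4 ± 4.71 FPKM, above Il1rl1 at 36.9 ± 1.40 and Il33 at 26.6 ± 0.312. Il1rn, at 5.06 ± 0.133 FPKM, was above Il1r2, at 2.08 ± 0.424, in this group, the reverse of their order in the control group.

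**Figure D1:**
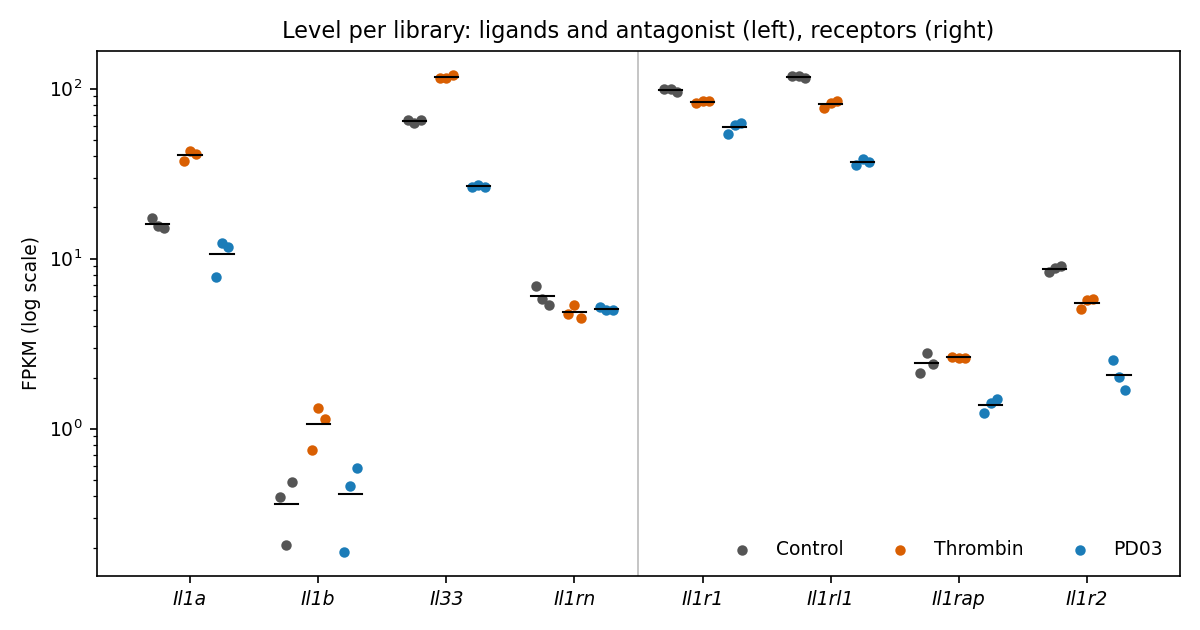
Level of the 8 tested members in each library, in FPKM on a log scale, with ligands and the antagonist on the left and receptors on the right. Points are libraries of the control, thrombin and PD03 groups and lines are group means; Il1a, Il1b and Il33 are highest with thrombin, Il1r1, Il1rl1 and Il1r2 step down from control to thrombin to PD03, and Il1rn lies between 4.45 and 6.93 FPKM in all 9 libraries.

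The comparison of the thrombin group with the control group asked how thrombin changed the family during osteogenic induction. The agonist ligands Il1a, Il1b and Il33 rose, and the decoy receptor Il1r2 fell. A gene was called changed at an adjusted p under 0.05 (edgeR quasi-likelihood test, Benjamini-Hochberg adjustment over all tested genes) with an absolute log2 fold change above 0.58. By this rule 4 of the 8 tested members were called, 3 higher and 1 lower, where 8.06% of all tested genes were called, 2.62% higher and 5.44% lower. By the adjusted p alone 7 members passed, 3 higher and 4 lower, against 28.7% of all genes, 14.1% higher and 14.6% lower. The median log2 fold change of the 8 members was -0.04 against -0.006 over all genes. The libraries of both groups did not overlap for 6 of the 8 members, as for 40.3% of all tested genes.

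Il1a was the main transcript of the IL-1 agonists. Its level was 34.7, 31.7 and 31.0 CPM in the control libraries, 77.1, 87.6 and 85.2 CPM in the thrombin libraries and 17.2, 26.9 and 25.9 CPM in the PD03 libraries. All thrombin libraries were above all others, and all PD03 libraries were below all controls. With thrombin it rose 2.56-fold (log2 fold change 1.36, SE 0.08, edgeR adjusted p = 1.57e-17). With PD03 it was 3.60-fold lower than with thrombin alone (log2 fold change -1.85, SE 0.09, adjusted p = 1.03e-21). Against control, the PD03 group differed by a log2 fold change of -0.49 (SE 0.09, adjusted p = 3.76e-05), short of the fold threshold. The first PD03 library was the lowest of its group, and without it the difference from control was -0.30.

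Il1b was scarce. Its raw counts were 13, 6 and 14 in the control libraries, 23, 44 and 36 in the thrombin libraries and 7, 14 and 19 in the PD03 libraries, or 33, 103 and 40 counts per group. Each thrombin library was above each library of the other groups, while the control and PD03 libraries overlapped. Il1b rose 2.96-fold with thrombin (log2 fold change 1.57, SE 0.38, adjusted p = 0.00117) and was 2.46-fold lower with PD03 than with thrombin alone (-1.30, SE 0.36, adjusted p = 0.00278). The decrease with PD03 was not called when tested against the fold threshold itself (edgeR glmTreat, adjusted p = 0.088). Il1b made up 1.32% to 4.77% of the summed FPKM of Il1a and Il1b in the 9 libraries, with group means of 2.21% in control, 2.54% in thrombin and 3.59% in PD03.

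Il33 was the most abundant ligand in every group. It lay at 231, 225 and 235 CPM in the control libraries, 420, 419 and 438 in the thrombin libraries and 102, 104 and 103 in the PD03 libraries. The 3 groups were fully separate, in the order thrombin, control, PD03. Il33 rose 1.85-fold with thrombin (log2 fold change 0.89, SE 0.04, adjusted p = 4.86e-23) and was 4.13-fold lower with PD03 than with thrombin alone (-2.05, SE 0.04, adjusted p = 3.08e-35). It was also lower with PD03 than in control (log2 fold change -1.16, SE 0.04, adjusted p = 8e-26). Il18, the ligand of a separate receptor pair, was close to absent: its counts were 2, 2 and 0 in control, 0, 4 and 0 in thrombin and 8, 1 and 3 in PD03. A floor of 3 counts over a group corresponds to 0.0574 to 0.0599 CPM, which covers counting error only, and no fold change of Il18 is given.

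Markers of other cell types were set beside the ligands. Of 18 myeloid markers, 15 were in the table and 4 were tested, of which 0 were called with thrombin (1 at an unadjusted p under 0.05 in edgeR, and 0 called by DESeq2 and limma voom). Over all tested genes 8.06% were called in that comparison. In PD03 against thrombin Cd14, the co-receptor for endotoxin, fell (log2 fold change -0.91) and the transcription factor Spi1 rose (0.92, edgeR adjusted p = 0.035, not called by DESeq2). In PD03 against control Csf1r, the receptor for macrophage growth factor, rose (1.47, adjusted p = 0.00448), with means of 0.440, 0.746 and 1.23 CPM in control, thrombin and PD03. The summed level of the 15 markers was 23.2 to 26.6 CPM in control, 30.8 to 35.5 in thrombin and 20.1 to 21.4 in PD03 libraries. Most of this sum was Cd14, with means of 20.4, 29.3 and 15.7 CPM and a log2 fold change of 0.52 with thrombin, under the fold threshold. Without Cd14, a split chosen after the values were seen, the sums were 4.55 to 4.73, 3.39 to 5.07 and 4.87 to 5.69 CPM. The part of such cells in the levels of Il1a and Il1b was not tested. Neutrophil markers summed to at most 0.822 CPM in any library, and mast cell markers, with Tpsab1 at 0 counts in control and PD03, to 1.77 to 4.13, 1.37 to 1.51 and 1.53 to 1.81 CPM. Endothelial markers, at 9.40 to 9.72, 8.06 to 10.8 and 13.02 to 15.3 CPM, and epithelial markers, at 8.21 to 11.4, 8.45 to 9.26 and 12.7 to 16.3 CPM, were highest in the PD03 libraries. The largest part of the endothelial sum was Tek (6.46, 6.17 and 9.50 CPM). Kdr was also highest with PD03 (0.563, 0.692 and 1.88 CPM), whereas Vwf (1.11, 1.25 and 1.18) and Erg (1.01, 0.847 and 1.03) were called in no comparison. Pecam1 had 1 to 8 counts per library. The largest part of the epithelial sum was Krt8 (6.87, 4.07 and 10.09 CPM). Krt18 was also highest with PD03, whereas Sfn and Dsp were highest with thrombin. Of the 4 tested epithelial markers 1 was called higher with thrombin, Sfn (1.08, edgeR adjusted p = 0.00428), and 1 lower, Krt8 (-0.74, 0.000589). In PD03 against thrombin 2 were called higher, Krt8 (1.31) and Krt18 (1.82), and 0 lower. Of the 8 tested osteoblast markers 1 rose and 1 fell with thrombin, the matrix gene Postn (0.77) and Alpl, the gene for alkaline phosphatase (-2.23). In PD03 against thrombin 4 rose, Col1a1 (0.75), Col1a2 (0.76), Sparc (0.69) and Alpl (3.14), and 1 fell, Runx2 (-0.67). In PD03 against control 2 rose, Col1a1 and Alpl, and 0 were called lower, also by DESeq2 and limma voom. At an unadjusted p under 0.05 in edgeR 5 were higher and 1 lower. The lower gene, Runx2, also passed the adjusted p (-0.42, edgeR adjusted p = 3.24e-06) but not the fold threshold. Over all tested genes 2.62%, 9.61% and 4.9% were called higher in these 3 comparisons, in this order, and 5.44%, 6.31% and 4.07% lower. These marker genes were named after their values were seen.

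Il1rn, the receptor antagonist, was called in none of the 3 comparisons. It lay at 13.7, 11.7 and 10.7 CPM in the control libraries, 9.57, 10.7 and 9.03 in the thrombin libraries and 11.3, 10.7 and 10.8 in the PD03 libraries. The control and thrombin libraries overlapped, and the lowest PD03 library and the highest thrombin library were both at 10.7 CPM. The difference of thrombin from control was -0.30 on the log2 scale (SE 0.12, edgeR adjusted p = 0.0495), short of the fold threshold. Over 19 alternative settings its adjusted p ranged from 0.027 to 0.317 and was under 0.05 in 7. The first control library was the highest, and without it the difference was -0.19 with an adjusted p of 0.317. PD03 differed from thrombin by 0.16 (SE 0.12, adjusted p = 0.262) and from control by -0.14 (SE 0.12, adjusted p = 0.371), neither of which passed the test. Use of strand in counting was not stated, and since Il36b overlaps the span of Il1rn, reads of these genes could not be told apart if strand was not used. Il36b itself had 0 to 6 counts per library. The same holds for Il1a, Il33 and Il1rap, each of which overlaps a RefSeq locus known only by a LOC symbol in GRCr8, and for Il18, which overlaps Bco2 and Tex12.

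The balance of agonists to antagonist was taken within each library as the summed FPKM of Il1a and Il1b divided by that of Il1rn, so that library scaling did not enter. The ratio was 2.55, 2.72 and 2.96 in the control libraries, 8.10, 8.29 and 9.56 in the thrombin libraries and 1.54, 2.56 and 2.48 in the PD03 libraries. Every thrombin library was above every library of the other groups, while the PD03 and control libraries overlapped. The means were 2.74 ± 0.203, 8.65 ± 0.792 and 2.19 ± 0.571 (SD, n = 3). On the log2 scale, thrombin was higher than control by 1.66, a 3.15-fold difference, and PD03 was 4.03-fold below thrombin. The difference of PD03 from control was -0.36. No test was run on the ratio, which is a score over chosen genes.

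Il1a made up most of the numerator in every library. With Il1b as the only agonist its group means were 0.0614, 0.221 and 0.0826, and with Il1r2 added to Il1rn as a second antagonist they were 1.11, 4.03 and 1.57. Under both definitions thrombin remained the highest group, but PD03 then lay above control in mean (log2 difference 0.37 and 0.45), so that the order of these means depended on the genes counted. The control and PD03 libraries overlapped under both definitions. They lay at 0.0358 to 0.0914 and 0.0363 to 0.118 with Il1b alone, and at 1.08 to 1.16 and 1.03 to 1.85 with Il1r2 added.

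The decoy receptor fell relative to the signalling receptor. The ratio of Il1r2 to Il1r1 in FPKM was 0.0838, 0.0887 and 0.0955 in control libraries, 0.0615, 0.0673 and 0.0687 in thrombin libraries and 0.0469, 0.0330 and 0.0269 in PD03 libraries. The 3 groups did not overlap, and the means were 0.0893 ± 0.00587, 0.0658 ± 0.00382 and 0.0356 ± 0.0102. For IL-33 and its receptor, a ratio chosen after the data were seen, Il33 to Il1rl1 gave 0.552, 0.527 and 0.566 in control, 1.52, 1.40 and 1.42 in thrombin, and 0.743, 0.704 and 0.714 in PD03 libraries. This ratio was therefore highest with thrombin, and the PD03 libraries stayed above the controls although both genes were lower than in control. The deposited values are per gene, so different transcript forms of Il1rl1 or Il1rap, if present, were not told apart.

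**Figure D2:**
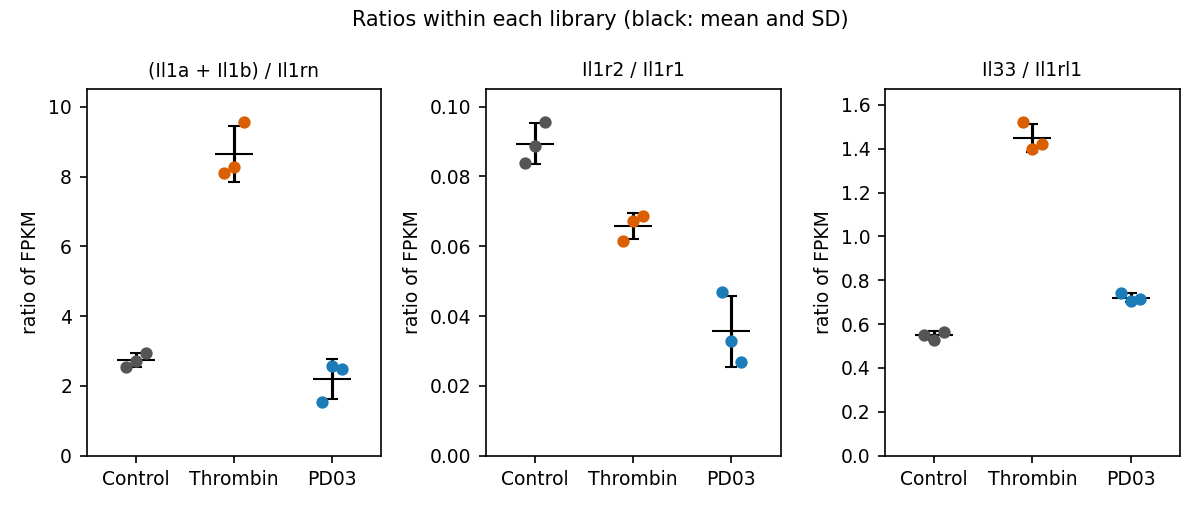
Ratio of FPKM values within each library for agonists to antagonist (Il1a plus Il1b over Il1rn), decoy to signalling receptor (Il1r2 over Il1r1) and Il33 over Il1rl1, by group. Points are libraries, and black lines and bars are means and SD of 3 libraries; thrombin is highest in the first and last panels, with means of 8.65 and 1.45, and the decoy ratio steps down to 0.0356 with PD03.

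Of the 4 receptor genes, 1 was called with thrombin, the decoy receptor. Il1r2 lay at 10.98, 11.7 and 12.2 CPM in the control libraries, 6.78, 7.67 and 7.81 in the thrombin libraries and 3.65, 2.91 and 2.45 in the PD03 libraries. The groups were separate, falling from control to thrombin to PD03. The fall with thrombin was -0.65 on the log2 scale (SE 0.13, adjusted p = 0.000159), just past the fold threshold, and it was not called when tested against that threshold (glmTreat, adjusted p = 1). With PD03 Il1r2 was a further 2.45-fold lower than with thrombin (-1.29, SE 0.16, adjusted p = 6.13e-09) and 3.83-fold below control (-1.94, SE 0.15, adjusted p = 5.41e-14).

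Il1rl1, the receptor for IL-33, was at 499.7, 508 and 494 CPM in control, 329, 357 and 367 in thrombin and 164, 176 and 171 in PD03 libraries. It stepped down in the same order with no overlap. The difference of thrombin from control was -0.51 (SE 0.04, adjusted p = 1.32e-14), under the fold threshold, and PD03 was 2.06-fold below thrombin (-1.04, SE 0.04, adjusted p = 1.37e-24) and 2.94-fold below control (-1.55, SE 0.04, adjusted p = 6.31e-30). Il1r1, the signalling receptor for IL-1, was at 457, 462 and 445 CPM in control, 384, 398 and 396 in thrombin and 272, 308 and 317 in PD03 libraries. Its differences were smaller: -0.21 for thrombin against control (SE 0.04, adjusted p = 5.97e-05), -0.40 for PD03 against thrombin (SE 0.04, adjusted p = 5.96e-11) and -0.61 for PD03 against control (SE 0.04, adjusted p = 4.06e-16). Only the last passed the fold threshold, and it did not without the first PD03 library (-0.54). It was also not called when tested against that threshold (glmTreat).

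Il1rap, the accessory chain shared by IL-1 and IL-33 receptors, was scarcer than either receptor. It lay at 6.63, 8.77 and 7.58 CPM in the control libraries, 8.44, 8.33 and 8.33 in the thrombin libraries and 4.24, 4.79 and 5.14 in the PD03 libraries. The control and thrombin libraries overlapped and the PD03 libraries were below both. The difference of thrombin from control, 0.13 (SE 0.14, adjusted p = 0.53), did not pass the test, whereas Il1rap was 1.78-fold lower with PD03 than with thrombin (adjusted p = 7.71e-06) and 1.62-fold lower than control (adjusted p = 0.000194).

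**Figure D3:**
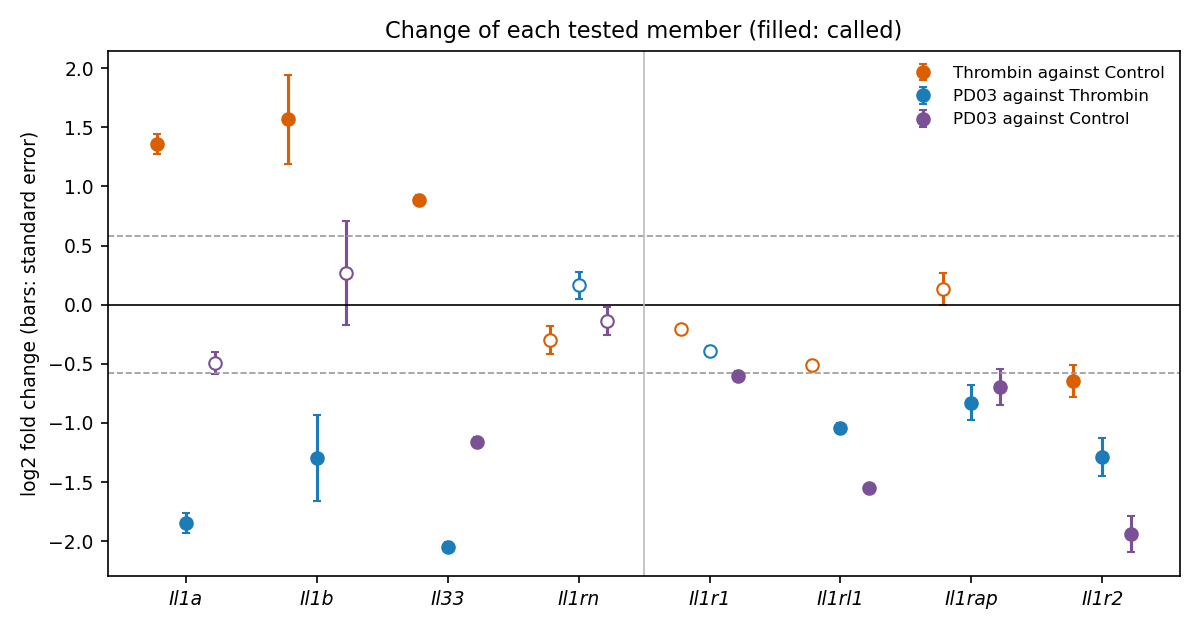
Log2 fold change of each tested member in 3 comparisons, with SE bars; filled points were called (adjusted p under 0.05 and absolute log2 fold change above 0.58, dashed lines) and open points were not. Il1a, Il1b and Il33 are filled above 0 for thrombin against control and below 0 for PD03 against thrombin, and every filled point of a receptor lies below 0.

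The comparison of PD03 with thrombin asked how MEK inhibition changed the family in thrombin-treated cells. Of 8 tested members 6 fell and 0 rose, where 15.9% of all tested genes were called, 9.61% higher and 6.31% lower. By the adjusted p alone 7 members were lower and 0 higher, against 49.8% of all genes, 25.3% higher and 24.5% lower. At an unadjusted p under 0.05, 7 members were lower and 0 higher, and DESeq2 and limma voom also called 6 lower and 0 higher. The median log2 fold change was -1.17, against 0.011 over all genes. In CPM the libraries did not overlap for any of the 8, as for 55.5% of all tested genes. For Il1rn the gap was only from 10.742 to 10.744 CPM. In FPKM its libraries overlapped, at 4.45 to 5.31 with thrombin and 4.97 to 5.21 with PD03. In PD03 against control, 5 members fell and 0 rose, where 8.97% of all genes were called, 4.9% higher and 4.07% lower, and DESeq2 and limma voom gave the same counts. By the adjusted p alone, and at an unadjusted p under 0.05, 6 members were lower and 0 higher, against 39.9% of all genes by adjusted p, 19.7% higher and 20.2% lower. The median was -0.65, against -0.004 over all genes, and 6 members did not overlap, as for 47.8% of all genes. The comparisons share libraries, so they are not independent of each other. Scaling by library totals moved the median of all genes in PD03 against control to -0.12 and left the direction of every member as it was.

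The other IL-1 family genes in the table were mostly scarce. Of 12 such genes 9 were in the table and 4 were tested, of which 0 were called with thrombin (2 at an unadjusted p under 0.05, and 0 by DESeq2 and limma voom). Over all tested genes 8.06% were called with thrombin. With PD03 against thrombin 1 rose and 2 fell, where 9.61% of all tested genes were called higher and 6.31% lower. Il18rap, the accessory chain of the IL-18 receptor, fell from a mean of 31.4 to 10.97 CPM (log2 fold change -1.52, SE 0.09, adjusted p = 7.01e-19), from 29.9 in control. Il18r1, the ligand-binding chain, fell from 2.06 to 1.06 CPM (-0.97, SE 0.33, adjusted p = 0.0118). Il18bp, a secreted binding protein that neutralises IL-18, rose from 2.63 to 5.07 CPM (0.95, SE 0.19, adjusted p = 6.24e-05), from 3.91 in control. Il1rl2, the receptor for IL-36, was at 83.3, 99.4 and 96.7 CPM and passed the fold threshold in no comparison. Il36b, Il36rn, Il1f10, Il1rapl1 and Il1rapl2 had at most 7 counts in any library.

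Several of these receptors lie next to each other on 1 chromosome, in the order Il1r2, Il1r1, Il1rl2, Il1rl1, Il18r1 and Il18rap in GRCr8, with H3f3al3, which was not tested, between Il1r2 and Il1r1. In PD03 against thrombin their log2 fold changes along this order were -1.29, -0.40, -0.04, -1.04, -0.97 and -1.52. The size of the fall thus differed between neighbours: Il1rl2, between Il1r1 and Il1rl1, had an adjusted p of 0.542.

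**Figure D4:**
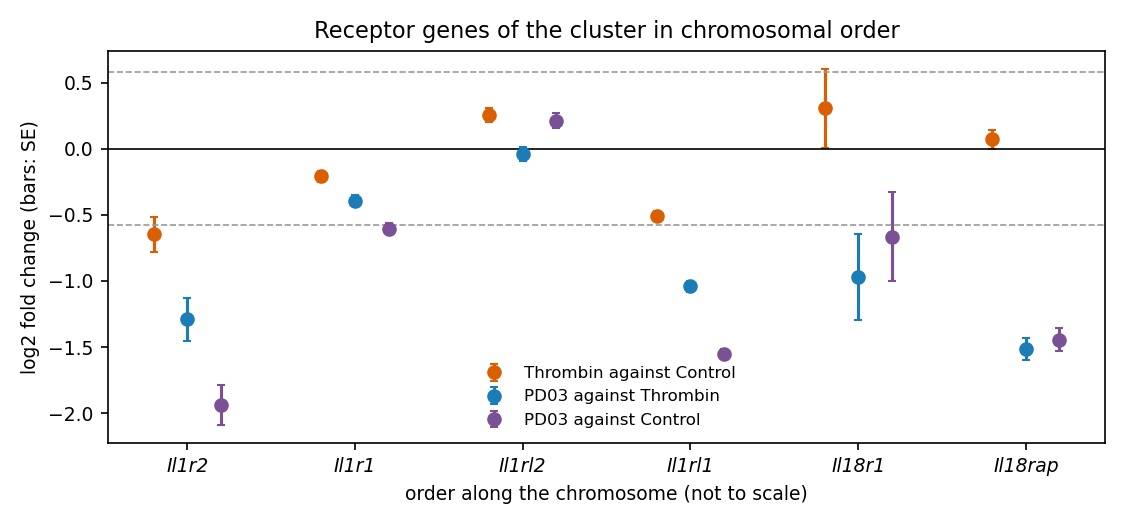
Log2 fold changes with SE bars of the 6 tested receptor genes in their order along the chromosome, not to scale, for 3 comparisons. Dashed lines mark a log2 fold change of 0.58 in either direction; Il1rl2 lies near 0 (-0.04) in PD03 against thrombin between neighbours at -0.40 and -1.04.

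Genes that act before and after the receptor were described from gene lists. Of 16 genes for processing and release of IL-1, 13 were tested, and with thrombin 1 rose and 1 fell, where 8.06% of all tested genes were called, with a median log2 fold change of 0.08. DESeq2 called 2 higher and 1 lower there, limma voom 1 and 1, and glmTreat 0 and 1, without Nlrp3. With PD03 0 rose and 1 fell against thrombin, where 15.9% of all genes were called, and the median was 0.03. DESeq2 and limma voom gave the same calls. At an unadjusted p under 0.05 in edgeR 7 genes passed, 4 higher and 3 lower. All 7 also passed the adjusted p, as did 49.8% of all genes. Among them Ninj1, named after its values were seen, was lower (-0.458, edgeR adjusted p = 1.2e-09). With thrombin Ninj1 was higher by 0.576 (adjusted p = 9.17e-12), just under the fold threshold. Nlrp3, the sensor of the inflammasome that activates IL-1β, rose from 4.89 to 7.40 CPM (0.59, SE 0.17, adjusted p = 0.00648) and was lower with PD03, at 4.04 (-0.89, SE 0.18, adjusted p = 4.38e-05). Casp1, the protease that cleaves IL-1β, was scarce and fell from 1.71 to 0.578 CPM (-1.56, SE 0.38, adjusted p = 0.00127), and was 0.627 CPM with PD03. Of 20 genes of receptor-proximal signalling, such as Myd88 and the IRAK kinases, 19 were tested. Of these 0 were called in thrombin against control and 0 in PD03 against thrombin, also by DESeq2 and limma voom. At an unadjusted p under 0.05 in edgeR 8 and 11 passed. By the adjusted p alone 28.7% and 49.8% of all genes passed. Several of this list, named after their values were seen, passed it with changes under the fold threshold. With thrombin Tifa (-0.54, edgeR adjusted p = 2.17e-08) and Myd88 (-0.29, 0.000337) were lower and Peli1 (0.45, 0.00105) higher. In PD03 against thrombin Myd88 (0.37, 2.48e-06) and Tifa (0.40, 5.14e-06) were higher and Chuk (-0.32, 0.000273) lower. The medians of this list were -0.01 and 0.12, against -0.006 and 0.011 over all genes. Over all tested genes 8.06% and 15.9% were called in these comparisons. In PD03 against control 1 gene rose, Map3k8 (0.58), named after its value was seen, and limma voom called none. There 8.97% of all tested genes were called.

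Known targets of IL-1 include genes that many other signals also induce. Of 30 such genes 27 were tested. With thrombin 11 rose and 4 fell, with a median log2 fold change of 0.49 against -0.006 over all genes, where 2.62% of all tested genes were called higher and 5.44% lower. With PD03 against thrombin 2 rose and 16 fell, with a median of -0.81 against 0.011, where 9.61% of all genes were called higher and 6.31% lower. In PD03 against control 1 rose and 13 fell, with a median of -0.55 against -0.004, where 4.9% of all genes were called higher and 4.07% lower. Several of them were named by the study on the basis of this very experiment, so their direction is not independent evidence. Cxcl3, a neutrophil chemokine, went from 30.8 ± 0.344 to 204 ± 10.1 CPM with thrombin and to 8.40 ± 1.09 with PD03. Cxcl6, a related chemokine, went from 495 to 1644 and 193 CPM, and Lif, an IL-6 family cytokine, from 39.0 to 113 and 8.49 CPM. Cxcl2 fell from 3.08 to 0.0812 CPM with PD03. Csf2, the growth factor GM-CSF, had 45 to 57 counts in the libraries of the thrombin group and none in those of the PD03 group, which is at least 49.4-fold lower taking a floor of 3 counts over the group. Tnfaip3, an inhibitor of NF-κB signalling, and Vcam1, an adhesion molecule, were the 2 that rose with PD03 against thrombin, named after their values were seen, by 0.92 and 0.80 on the log2 scale.

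**Figure D5:**
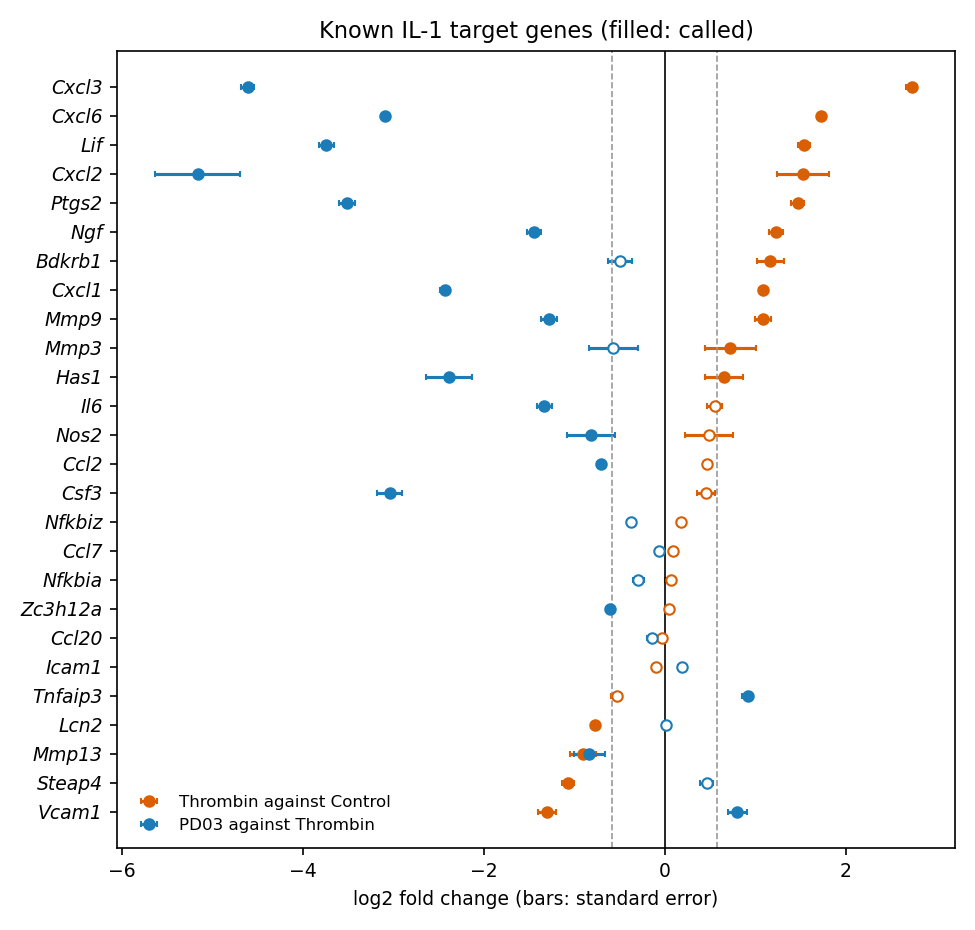
Log2 fold changes with SE bars of 26 tested known IL-1 target genes for thrombin against control and PD03 against thrombin, filled where called; Csf2 is left out because all its PD03 counts are 0. Cxcl3 is at the top, with 2.73 for thrombin and -4.61 for PD03, and Vcam1 at the bottom lies on opposite sides of 0 to most others, with -1.30 and 0.80.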

How the data were processed

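RNA sequencing counts of 9 rat osteoblast libraries were used. According to the study's methods, the authors used fastp, HISAT2 with Rnor_6.0 and featureCounts, whereas the submitters' processing notes name mRatBN7.2, HISAT2 and HTSeq 0.13.5. The authors deposited raw counts, used here for all tests, and FPKM values, used for comparison between genes and for ratios. The annotation release was not stated. Genes were kept by edgeR's filterByExpr (minimum count 10), scaled by TMM and tested in 1 fit of 3 groups with the quasi-likelihood method. Analyses used R 4.3.3, edgeR 4.0.16, limma 3.58.1, DESeq2 1.42.0, Python 3.11.15 and matplotlib 3.10.9, and the procedure was tested on simulated data. Replicates differed beyond counting error (chi-square divided by degrees of freedom, 1.82 to 4.04), so all libraries were kept separate. In each group replicates 2 and 3 were the closest pair, at 1.82, 2.15 and 1.92 in control, thrombin and PD03. Members and lists were chosen with earlier results of these data known. All members, every listed other family gene, the 3 most changed called genes of each pathway list and the 3 genes most like each of the 3 most abundant members were named. Alternatives covered scaling, filter, test, fold threshold, FPKM values, replicate block and each library left out. Protein and imaging data were not analysed here.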

Additional observations from a re-analysis of the deposited data

How the results depend on the processing

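The calls of the members kept their number within 1.5 times under most alternatives. The exceptions were thresholds: with no fold threshold 7 members were called in thrombin against control, and with a log2 fold change above 1 there were 2, because Il33 and Il1r2 lie under it. In PD03 against control 3 were called above 1, and 3 with glmTreat, which was added after the data were seen. Over all genes, counts moved by over 1.5 times for the 3 comparisons with no fold threshold (3808, 6608 and 5289), above 1 (505, 935 and 519), with FPKM plus 1 (543, 1254 and 676) and with glmTreat (460, 1051 and 499). Scaling by library totals moved the share of called genes that were higher from 60.4% to 46.5% in PD03 against thrombin and from 54.6% to 34.1% in PD03 against control. With each library left out in turn, members called were 4 to 4, 6 to 6 and 4 to 6. The one change of sign was Il1b in PD03 against control, which ranged from -0.092 without PD03 replicate 3 (adjusted p 0.913) to 0.649 without PD03 replicate 1 and passed the test in no case. Il1a in PD03 against control passed the fold threshold without PD03 replicate 2 (-0.61) or 3 (-0.58), with library totals (-0.61) and with FPKM plus 0.1 (-0.61). Il1rap was not called with FPKM plus 1 in PD03 against control (-0.52) and with glmTreat in either PD03 comparison. Il1r1 was not called with glmTreat in PD03 against control. Il1b was not called with FPKM plus 1 in PD03 against thrombin (-0.55). The log2 agonist ratio differences were 1.92, -1.55 and 0.37 with Il1b alone, and 1.86, -1.41 and 0.45 with Il1r2 added, the last of each reversing the sign. They ranged over 1.58 to 1.71, -2.14 to -1.77 and -0.49 to -0.12 with libraries left out. The decoy ratio ranged over -0.48 to -0.39, -1.14 to -0.74 and -1.58 to -1.18, and Il33 to Il1rl1 over 1.37 to 1.43, -1.03 to -0.97 and 0.37 to 0.42. The cause of the other changes was not tested. Il18 could be tested only without a filter (adjusted p 0.321 to 1), and Il1b drops out at a mean count of at least 50.

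Deviations of same-numbered libraries from their group means correlated between -0.05 and 0.048 over all tested genes. These values showed no pairing by replicate number but cannot exclude it. Counting error enters them, and the origin of the libraries was not stated. With the replicate block 4, 6 and 5 members were called, the same numbers as without it.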

Other observations

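Genes most like the 3 most abundant members over the 9 libraries were taken from 12368 genes by Pearson correlation of log2 CPM. Since the points share the same 3 groups, these values describe shared group differences and carry no test. Il1r1 was closest to Htr2a, a serotonin receptor (r = 0.9918, 33.1, 26.5 and 14.2 CPM in control, thrombin and PD03), Lama2, a laminin chain (0.9892), and Nr3c1, the glucocorticoid receptor (0.9878, 154, 138 and 117 CPM). Il1rl1 was closest to Egr2, a transcription factor (0.9931, 15.9, 6.16 and 0.98 CPM), Ndst3 (0.9925) and Gcnt4 (0.9924). Il33 was closest to Tbx3, a T-box transcription factor (0.9973, 17.03, 29.8 and 7.85 CPM), Tnfaip8 (0.9969) and Ccbe1 (0.9961).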
